A study of Mus musculus with 5 samples.

Results

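The Clca genes of the mouse were followed through 5 small intestine RNA libraries, with 1 library per mouse. Of the 7 symbols of the family (Clca1, Clca2, Clca3a1, Clca3a2, Clca3b, Clca4a and Clca4b), 6 were found by name among the 19198 genes of the deposited table. Clca2 was not, so only its place and sequence are described and not its expression. The study measured expression in whole small intestine after a Math1-driven recombinase was switched on in mice with floxed alleles of mAchR4 (Chrm4), the gene of a muscarinic receptor for acetylcholine. Math1 (Atoh1) is the transcription factor of secretory precursors. The 3 Cre-negative mice were mAchR4 fl/fl littermates, which carry floxed receptor alleles and no recombinase. The 2 Cre-positive mice were Math1Cre*PR mAchR4 fl/fl, in which the recombinase is driven by Math1 and switched on by RU486, a progesterone receptor ligand. All 5 mice had the floxed alleles and all 5 were gavaged with RU486 at 10 mg/kg daily for 4 days. No Cre-positive mouse with unfloxed receptor alleles is among these samples, so recombinase activity and receptor loss cannot be told apart, and the labels give neither age nor sex. The members were chosen by name with earlier results of these libraries known: they were selected on the measured values of goblet and enterocyte Clca genes in the 2 groups. The differences between groups given here for members are a description and support nothing further.

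CLCA proteins are large secreted or membrane-attached glycoproteins. They were named for a link to calcium-activated chloride currents, but are not channels themselves, and are processed by a metalloprotease domain of their own. Clca1, also called gob-5, is made by goblet cells and is an abundant protein of intestinal mucus, while Clca4a and Clca4b are enterocyte genes. Older names overlap: per RefSeq, Clca3a1 was once called Clca1, Clca3a2 was called Clca2 and Clca3b was called Clca4.

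The family lies in 1 cluster on chromosome 3 (GRCm38, GENCODE M21), chr3:144729677-145099443, a span of 370 kb in which the only protein-coding genes were the 7 members. All of them, and the pseudogene Clca4c-ps, are on the minus strand. In order along the chromosome they are Clca3a1 (chr3:144729677-144760977), Clca3a2 (chr3:144796559-144819494), Clca3b (chr3:144822623-144849357), Clca4c-ps (chr3:144861826-144896011), Clca4b (chr3:144910921-144932529), Clca4a (chr3:144952480-144975045), Clca1 (chr3:145003817-145032776) and Clca2 (chr3:145070263-145099443). The main transcript of each has 14 exons. Coding sequences of Clca4a and Clca4b were of equal length, 2778 bases, and 96.0% identical with a longest identical run of 168 bases, and those of Clca3a1 and Clca3a2 were both 2709 bases long and 97.1% identical. Clca3b was 87.0% and 87.1% identical to these. Clca1 was no more than 65.6% identical to any other member.

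The stretches that follow show how much of a short read can tell the enterocyte members from each other and from the goblet member. They are 60 coding bases in exon 9, where Clca4a and Clca4b are identical, and capitals mark bases that differ from Clca4a. They lie at chr3:144960664-144960723 in Clca4a, chr3:144919303-144919362 in Clca4b and chr3:145011786-145011845 in Clca1, where 21 bases differ.
Clca4a: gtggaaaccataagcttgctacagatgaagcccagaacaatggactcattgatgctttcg
Clca4b: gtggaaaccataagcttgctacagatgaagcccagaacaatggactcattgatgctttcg
Clca1: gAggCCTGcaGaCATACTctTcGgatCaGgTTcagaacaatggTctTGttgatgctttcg

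Clca4a and Clca4b differed most in exon 5 (chr3:144968346-144968405 and chr3:144926116-144926175), where 9 of 60 bases were different, shown in capitals in Clca4b.
Clca4a: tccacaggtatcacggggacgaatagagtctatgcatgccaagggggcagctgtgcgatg
Clca4b: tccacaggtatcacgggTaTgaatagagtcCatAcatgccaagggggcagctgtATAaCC

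The Clca3 genes form a similar set. In exon 7, Clca3a1 (chr3:144752093-144752152) and Clca3a2 (chr3:144810805-144810864) were identical over these 60 bases, and their longest identical coding run was 242 bases. Clca3b (chr3:144839187-144839246) differed at 11 bases and Clca1 (chr3:145015783-145015842) at 22, in capitals.
Clca3a1: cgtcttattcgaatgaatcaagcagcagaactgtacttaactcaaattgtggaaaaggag
Clca3a2: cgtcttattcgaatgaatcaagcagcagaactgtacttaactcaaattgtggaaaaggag
Clca3b: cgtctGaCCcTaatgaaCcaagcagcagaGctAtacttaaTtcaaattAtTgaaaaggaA
Clca1: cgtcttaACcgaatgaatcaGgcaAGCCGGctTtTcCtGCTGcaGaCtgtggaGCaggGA

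These likenesses can be set beside the deposited values, which are estimated counts and not always whole. Of all 50-base stretches of the Clca1 transcript, 0% occurred in another gene of the cluster, and its counts were whole (within 0.005 of a whole number) in 5 of 5 libraries. Of those of Clca4a 37.1%, of Clca4b 24.8%, of Clca3a1 24.9% and of Clca3a2 25.9% occurred in at least 1 other gene of the cluster. The counts of these 4 genes were not whole in any of the 5 libraries. Clca3b shared 6.0% of its stretches and its counts were whole in 5 libraries. The summed counts of Clca3a1 and Clca3a2 came to whole numbers, 36 and 139, in Cre-negative 1 and 2, though each gene alone did not. In the other libraries the sums were 233.92, 183.957 and 228.574, which are not whole. Over all genes of the table, 19.6% (Cre-negative 1) to 21.7% (Cre-negative 3) of the values in a library were not whole. Such values are thus not particular to these paralogs, and their tie to the shared stretches was not tested. Values of Clca4a, Clca4b, Clca3a1 and Clca3a2 carry an uncertainty of assignment that Clca1 and Clca3b do not show. Neither the read length nor the way shared reads were divided is given in the sources used here.

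**Figure D1:**
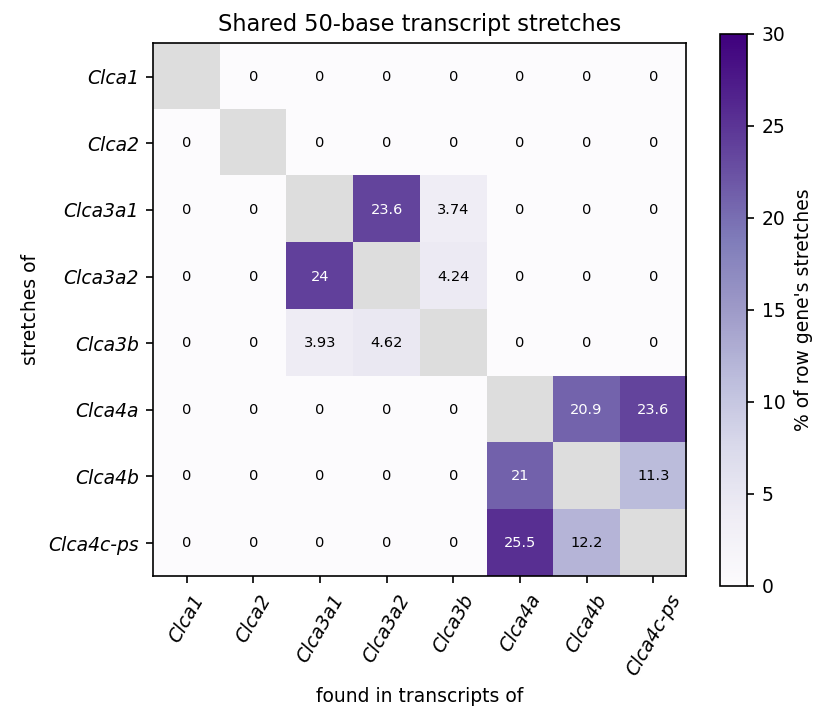
Share of the 50-base stretches of each gene's main transcript (rows, %) that also occur in any transcript of another gene of the cluster (columns). Clca1 and Clca2 share none, while the Clca3 genes and the Clca4 genes form separate blocks of up to 24.0% and 25.5%.

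The pseudogene Clca4c-ps, which shares 23.6% of the Clca4a stretches, held only 8.48 to 24.7 counts per library. Exons of Clca4a also overlap the antisense gene Gm16233 over 334 bases (11.1% of its exon length), and Gm16233 held 18.03 to 35.1 counts. Both are small beside the 2090 to 7734 counts of Clca4a. Exons of Clca3a2 overlap the antisense gene Gm43240 over 241 bases, and those of Clca3a1 overlap Gm34866 over 170. No source used here says whether counting used the strand, and reads of these overlaps cannot be told apart.

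Sequence before the transcription start was held in the RefSeq table (GRCm38.p6) for Clca2, Clca3a1, Clca3a2, Clca3b and Clca4b. Clca3a2 and Clca3b, which sit side by side, shared an identical run of 39 bases there, printed in capitals with the 40 bases before it. Over all 250 bases these 2 windows were 68.8% identical, and the other 9 pairs of windows were 47.7% to 57.5% identical with runs of at most 9 bases. The stretches are chr3:144819525-144819603 and chr3:144849341-144849419, both on the minus strand, and in GENCODE the last 17 bases of the second lie inside the first exon of Clca3b.
Clca3a2: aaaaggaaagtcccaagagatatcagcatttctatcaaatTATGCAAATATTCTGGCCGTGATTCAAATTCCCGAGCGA
Clca3b: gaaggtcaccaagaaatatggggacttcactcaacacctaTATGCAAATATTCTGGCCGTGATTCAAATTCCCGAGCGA

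The run contains the octamer ATGCAAAT, a motif known from POU factor binding, which 1.60% of 32851 such windows of 250 bases hold on either strand. It was searched after the run had been seen. Upstream of Clca4b, the member with the highest level, the 150 bases nearest the start (chr3:144932530-144932679, minus strand) hold a TATA-like run, in capitals.
Clca4b: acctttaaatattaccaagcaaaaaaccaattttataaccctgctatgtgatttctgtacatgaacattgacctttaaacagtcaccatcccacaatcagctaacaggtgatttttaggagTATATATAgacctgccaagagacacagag

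TATATA occurs in 5.25% of all windows and, among the members, in those of Clca4b and Clca3a1. TTTATG, a core recognised by the intestinal factor CDX2, occurs in 10.8% of windows, and in those of Clca3a2, Clca3b and Clca4b. AGATAA, a core bound by the GATA family of zinc finger factors, occurs in 9.99% of windows and in that of Clca3a2. A forkhead factor core, TGTTTAC, occurs in 3.17% of windows and in that of Clca3b. All were searched on both strands, TTTATG and ATGCAAAT have the letters ATG in common, and a match is a description of letters and not a measured site.

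The libraries held 4681119 to 6618204 estimated counts. Chrm4, the targeted receptor gene, was counted 4, 20 and 4 times in Cre-negative 1, 2 and 3, against 13 and 5 times in the Cre-positive libraries, too few in whole tissue to check the genotype labels. Libraries of each group differed in genes that mark position along the gut. Slc10a2, the bile acid transporter of the ileum, stood at 194, 382 and 7.01 CPM (counts scaled to a common library total) in Cre-negative 1, 2 and 3, against 837 and 44.6 CPM in Cre-positive 1 and 2. Lct, the lactase gene of the upper small intestine, ran the other way, at 231, 16.0 and 948 CPM and at 3.60 and 614 CPM. Cre-positive 1 also stood apart in lymphocyte markers, whose 8 genes summed to 554 CPM there and to 27.1 to 46.3 CPM in the other libraries, where Cd79a was at 0. The 10 smooth muscle markers summed to 2170, 1176 and 849 CPM in the Cre-negative libraries against 772 and 760 CPM in the Cre-positive ones. Their part in the values of the Clca genes was not tested; values without single mice are given beside the results. In bulk tissue, fewer cells of a type and less RNA per cell cannot be told apart.

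Clca1, the goblet member, had the widest range in the family. Its counts were 173, 191 and 692 for Cre-negative 1, 2 and 3, with 5033 and 1857 for Cre-positive 1 and 2, or 37.0, 36.0 and 121 CPM against 1006 and 281 CPM. Both Cre-positive libraries were above all 3 Cre-negative libraries, and Cre-positive 1 was by far the highest. The highest library had 28.0 times the CPM of the lowest. Group means were 64.7 ± 49.0 CPM (SD, n = 3) and 644 ± 513 CPM (SD, n = 2). From edgeR with TMM scaling, the Cre-positive to Cre-negative log2 fold change was 3.32 ± 0.68 (SE). Without Cre-positive 1, the library with the lymphocyte signal, it was 2.22, resting on 1 Cre-positive library. Without Cre-negative 3 it was 4.09 ± 0.64.

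Clca4a, an enterocyte member, stood at 446, 427 and 695 CPM in Cre-negative 1, 2 and 3, against 1369 and 1169 CPM in Cre-positive 1 and 2. The groups did not overlap, and the 2 Cre-positive libraries were close to each other, unlike those of Clca1. Means were 523 ± 149 CPM (SD, n = 3) and 1269 ± 142 CPM (SD, n = 2), with a log2 fold change of 1.27 ± 0.27. It was 1.14 to 1.499 with each mouse left out in turn.

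Clca4b, its neighbour, was the steadiest member. It stood at 2003, 2621 and 2549 CPM across Cre-negative mice against 3048 and 3361 CPM across Cre-positive mice, and the highest library had 1.68 times the CPM of the lowest. These groups did not overlap either, and the log2 fold change was 0.42 ± 0.26. With Clca4a and Clca4b summed into 1 gene, it was 0.61 ± 0.26. This removes only the question of how reads were divided between these 2 genes. Clca4c-ps and Gm16233, whose counts were not whole either, were left out of the sum.

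Clca3b, whose role in the intestine is less known, varied 15.8-fold between libraries without following the groups. It stood at 16.2, 83.6 and 224 CPM in Cre-negative 1, 2 and 3, against 256 and 99.3 CPM in Cre-positive 1 and 2. Cre-positive 2 lay below Cre-negative 3, so the groups overlapped. The log2 fold change was 0.76 ± 0.91. Leaving out Cre-positive 1 gave 0.0034, with 1 Cre-positive library left. Leaving out Cre-negative 1 gave 0.29 ± 0.61 and leaving out Cre-negative 3 gave 1.82 ± 0.85.

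Clca3a2 and Clca3a1 were the members with the lowest levels. Clca3a2 had 4.93, 15.1 and 27.6 CPM for Cre-negative mice against 29.98 and 24.6 CPM for Cre-positive mice, with overlapping groups and a log2 fold change of 0.81 ± 0.54, which was 0.44 ± 0.35 without Cre-negative 1 and 1.43 ± 0.49 without Cre-negative 3. Clca3a1, known from lymphatic endothelium, had 2.76, 11.1 and 13.4 CPM and 6.81 and 9.91 CPM, a log2 fold change of -0.08 ± 0.56. Its lowest value rested on 12.9 counts. With both genes summed the log2 fold change was 0.55 ± 0.53. Cre-negative 1 was the lowest library for Clca3a1, Clca3a2, Clca3b and Clca4b, and it was also the library with the highest smooth muscle sum.

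**Figure D2:**
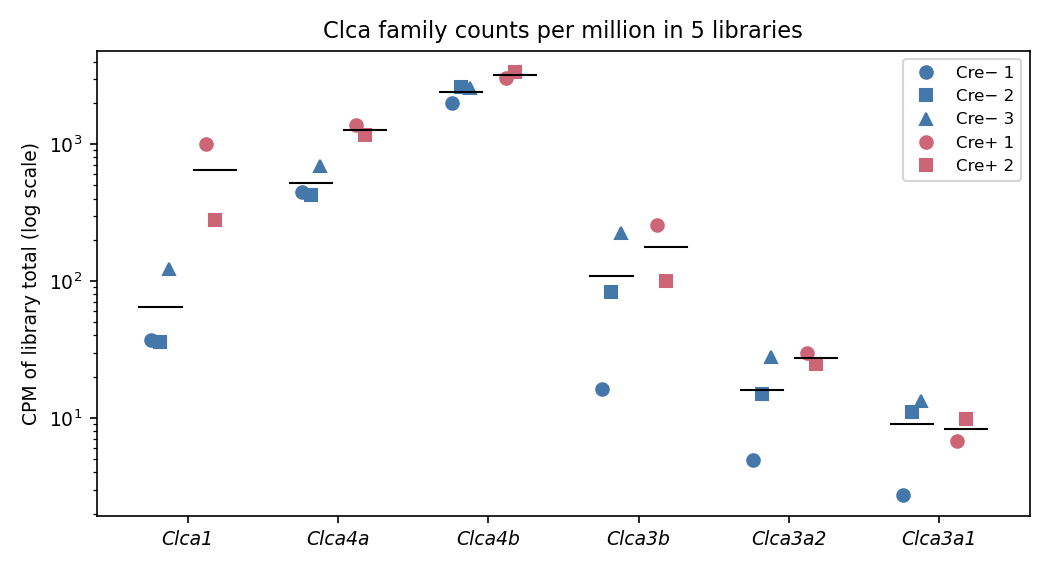
CPM of the library total (log axis) for 6 Clca genes in 3 Cre-negative (blue) and 2 Cre-positive (red) libraries, with symbols for the mice and black lines for the group means. Clca1, Clca4a and Clca4b have groups that do not overlap, and Clca1 spans 36.0 to 1006 CPM.

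In the fit over all genes, 0 of 6 members were called at an adjusted p of 0.05 by edgeR's quasi-likelihood test, beside 0% of 14352 genes tested (0 called, 485 at an unadjusted p under 0.05, of them 2 members, Clca1 and Clca4a). The edgeR adjusted p of the members lay between 0.977 and 0.991. DESeq2 called 2 members higher, Clca1 (adjusted p = 0.00144) and Clca4a (adjusted p = 0.0145), where it called 0.0836% of genes higher, and limma-voom called 0 members. Groups of CPM did not overlap, with Cre-positive higher, for 3 of 6 members and for 5.89% of genes tested. Since these genes were chosen with that contrast known, nothing is read from the counts. The median log2 fold change was 0.78 over the 6 members and -0.04 over all genes tested, and 5 of 6 members and 45.5% of all genes had a positive value.

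**Figure D3:**
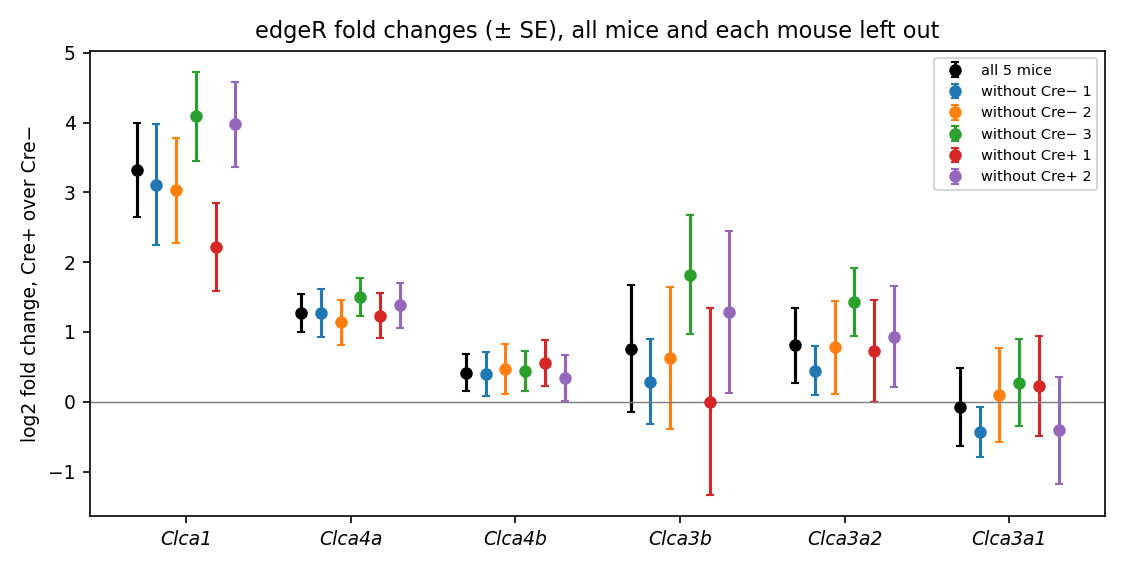
log2 fold changes of Cre-positive over Cre-negative from edgeR (points, with bars of 1 SE) for each Clca gene, with all 5 mice in black and each mouse left out in colour. Clca1 lies between 2.22 and 4.09 and Clca4a between 1.14 and 1.499 with a mouse left out, while Clca3a1 and Clca3b reach 0 or cross it. Fits without a Cre-positive mouse hold 1 library in that group, so their bars carry no spread between Cre-positive mice.

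Levels of different genes were compared per kilobase of exon. Clca4b led in 5 of 5 libraries, at 798 ± 113 CPM per kilobase (SD, n = 3) in the Cre-negative libraries against 1069 ± 73.8 (SD, n = 2) in the Cre-positive ones, followed by Clca4a at 174 ± 49.7 and 422 ± 47.1. Clca3b was next in Cre-negative mice at 32.1 ± 31.6 and Clca1 at 17.1 ± 12.97, an order within their spread. In Cre-positive mice Clca1 averaged 170 ± 136 and Clca3b 52.8 ± 32.9. Clca3a2 at 3.99 ± 2.86 and 6.87 ± 0.952 and Clca3a1 at 2.33 ± 1.43 and 2.14 ± 0.562 were lowest, with Clca3a2 above Clca3a1 in 5 of 5 libraries.

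The make-up of the family signal shifted from library to library. Clca4b gave 80.2%, 82.7% and 71.4% of the summed CPM per kilobase in Cre-negative 1, 2 and 3, against 55.7% and 69.1% in Cre-positive 1 and 2. Clca4a gave 17.8%, 13.4% and 19.4% against 25.0% and 24.0%. Clca1 gave 1.17%, 0.900% and 2.70% against 14.6% and 4.58%. In all, the 6 genes took 0.251%, 0.319% and 0.363% of the library counts across Cre-negative mice against 0.572% and 0.494% across Cre-positive mice.

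**Figure D4:**
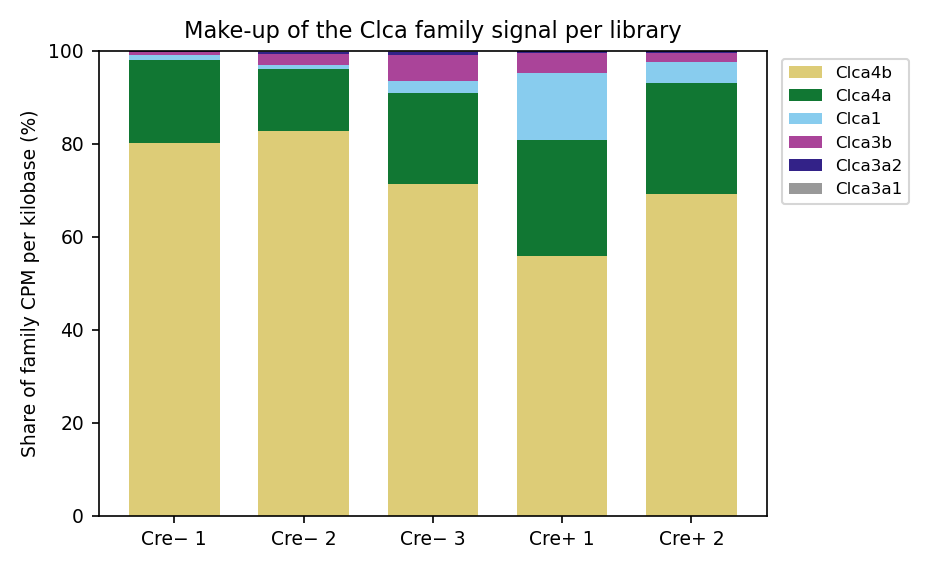
Share of each Clca gene in the family's summed CPM per kilobase of exon (%, stacked bars) in 5 libraries. Clca4b makes up 55.7% to 82.7% of the bars, and the Clca1 segment is largest in Cre-positive 1 at 14.6%.

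Goblet and enterocyte members were set against each other within each library, where scaling cancels. For every 100 units of Clca4a plus Clca4b per kilobase there were 1.20, 0.936 and 2.97 of Clca1 in Cre-negative 1, 2 and 3, against 18.1 and 4.92 in Cre-positive 1 and 2. Both Cre-positive libraries were above the Cre-negative libraries, and they differed from each other by more than the Cre-negative mice did. On the log2 scale, from counts, the ratio averaged -5.73 ± 0.88 (SD, n = 3) and -3.07 ± 1.33 (SD, n = 2), a difference of 2.66, or 1.72 without Cre-positive 1. The 2 enterocyte members also shifted against each other. Per 100 Clca4b there were 22.2, 16.3 and 27.2 of Clca4a for Cre-negative mice against 44.8 and 34.7 for Cre-positive mice, a log2 difference of 0.88. That ratio depends on how shared reads were divided, since both genes had values that were not whole.

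Clca1 was next compared with the other products of goblet cell granules. Of 10 fixed genes for goblet mucus and secreted proteins, 9 passed the count filter and 7 had a positive log2 fold change, with a median of 1.65. The negative ones were Itln1 and Ang4, at -0.61 and -0.68. By edgeR 0 of 9 were called and 6 had an unadjusted p under 0.05, beside 485 of 14352 genes in all. DESeq2 called Tff3, Zg16 and Agr2 higher, beside 0.0836% of all genes. The trefoil peptide gene Tff3 had 9.61, 8.66 and 29.8 CPM in the Cre-negative libraries against 128 and 54.1 CPM in the Cre-positive ones, an order like that of Clca1. Zg16, a lectin-like granule protein, had 9.61, 9.04 and 49.1 CPM and 183 and 109 CPM. Muc2, the gel-forming mucin, had 287, 613 and 600.4 CPM and 2134 and 1011 CPM, and Fcgbp, an IgG Fc binding mucus protein, 85.02, 144 and 458 CPM and 1025 and 603 CPM. Spink4, a secreted protease inhibitor, had 78.0, 186 and 191 CPM and 630.1 and 138 CPM, so its groups overlapped. Cre-positive 1 was the highest library for each of these 5 genes, and for Itln1, a lectin of goblet and Paneth cells (57.9, 240.4 and 127 CPM, and 74.2 and 108.8 CPM), it was not.

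Counts of Clca1 per count of Tff3 were nearly constant in Cre-negative mice, at 3.84, 4.15 and 4.07, and were 7.86 and 5.19 in Cre-positive mice, a log2 difference of 0.67. Per count of Zg16 they were 3.84, 3.98 and 2.47 and 5.49 and 2.58, with overlapping groups and a log2 difference of 0.16. Per count of Muc2 they were 0.129, 0.0586 and 0.202 and 0.472 and 0.277, a log2 difference of 1.65. The ratios to Tff3 and Muc2 had groups that did not overlap, and whether they differ was not tested. Of the 15 genes of goblet differentiation and mucin glycosylation, 9 passed the filter and 7 were positive, with a median equal to the log2 fold change of Creb3l1, 1.00003, and 0 were called by edgeR or DESeq2 and 0 had an unadjusted p under 0.05. Klf4, a factor of villus and goblet differentiation, had 196, 199 and 163 CPM and 133 and 217 CPM. C1galt1c1, the chaperone of mucin core synthesis, had 23.5, 25.2 and 37.2 CPM and 52.2 and 29.0 CPM. Creb3l1, a secretory pathway factor, had 7.05, 7.91 and 5.43 CPM and 20.6 and 7.55 CPM, and Ern2, the goblet cell stress sensor, 11.5, 19.4 and 7.89 CPM and 17.4 and 9.22 CPM.

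**Figure D5:**
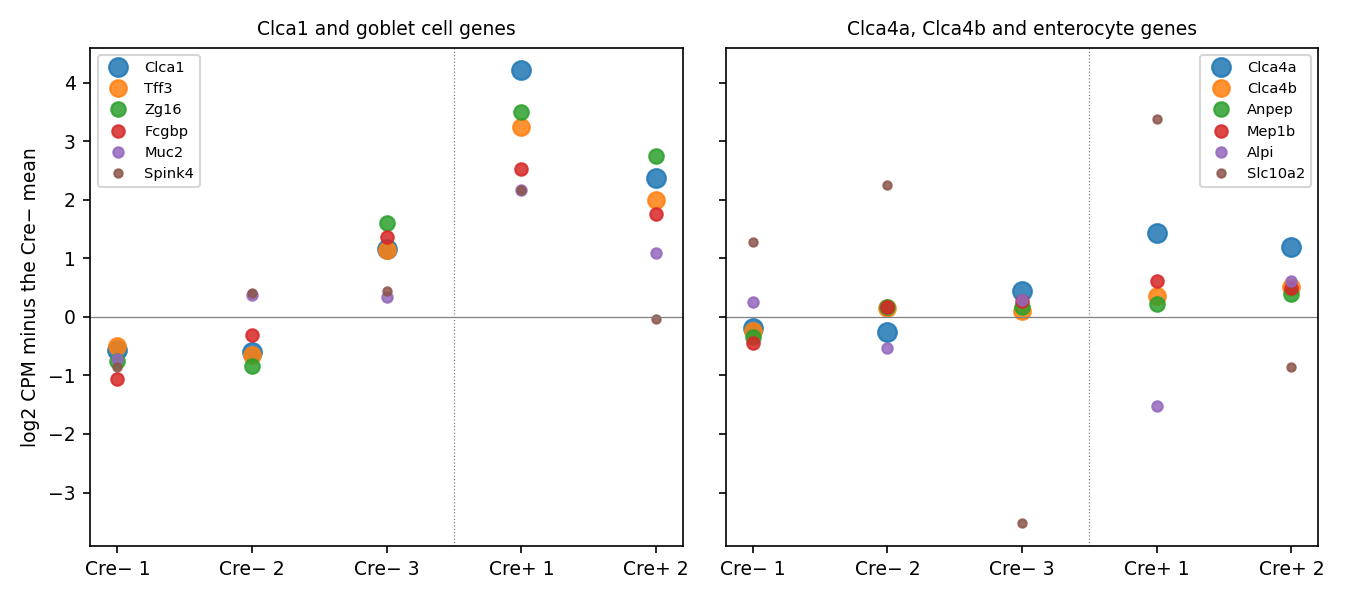
log2 CPM minus the mean of the 3 Cre-negative libraries for Clca1 with 5 goblet cell genes (left) and for Clca4a and Clca4b with 4 enterocyte genes (right), in 3 Cre-negative and 2 Cre-positive libraries. Clca1, Tff3 and Zg16 take similar places in each library, and Clca4b lies near Anpep, while the ileal gene Slc10a2 spreads from 7.01 to 837 CPM. The genes shown were picked from longer lists, Tff3 and Zg16 after their values were seen. Itln1 and Ang4 of the goblet list, with log2 fold changes of -0.61 and -0.68, are not shown.

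The genes with the pattern most like Clca1 were P2ry4, Tff3, Zg16, Gzmb and Ubd. Likeness was the root mean square difference of log2(CPM + 1), centred on each gene's mean, over 5 libraries. It was taken among 9009 genes with a mean of at least 5 CPM over all libraries. Predicted genes, pseudogenes and immunoglobulin or T cell receptor segments were left out. These 5 lay at 0.26, 0.41, 0.42, 0.54 and 0.63. P2ry4, a nucleotide receptor gene, had 2.14, 0.753 and 6.13 CPM across Cre-negative mice against 58.4 and 14.4 CPM across Cre-positive mice. Gzmb, a protease of cytotoxic lymphocytes, had 0.854, 1.51 and 2.80 CPM and 24.2 and 7.10 CPM. Ubd, a ubiquitin-like modifier, had 0.641, 1.32 and 11.6 CPM and 102 and 8.91 CPM. Fcgbp and Agr2 took places 6 and 7, Muc2 place 22 and Spink4 place 63. All these likenesses rest on the same 5 libraries. P2ry4, Gzmb and Ubd reached the mean of 5 CPM only with the Cre-positive libraries. Their likeness to a gene that is high there is thus partly set by the filter.

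Enterocyte genes were taken next. All 24 villus enterocyte genes passed the filter, 9 were positive and 15 negative, the median log2 fold change was -0.12, 0 were called by edgeR or DESeq2, and 0 had an unadjusted p under 0.05. The groups did not overlap for 2 of 24, both higher in Cre-positive mice, beside 5.89% of all genes tested that were apart in that direction and 16.3% in either. Sis, the sucrase-isomaltase gene, had 4319, 2783 and 8755 CPM for Cre-negative mice against 1962 and 6564 CPM for Cre-positive mice, and Apob, the chylomicron protein gene, had 12412, 9462 and 15972 CPM and 9116 and 19294 CPM. Enpep, a brush border aminopeptidase gene, had 1122, 1422 and 1370.0 CPM and 1789 and 1503 CPM. Counts of Clca4a per 100 counts of the 24 genes were 1.48, 1.71 and 1.58 in the Cre-negative libraries against 6.13 and 2.58 in the Cre-positive ones. Those of Clca4b were 6.63, 10.5 and 5.80 and 13.6 and 7.41, with overlapping groups. The 24 genes summed to 30203, 25000 and 43907 CPM and to 22342 and 45380 CPM, so the denominator was lowest in Cre-positive 1. Lct, Fabp1, Apoa4 and Slc2a2 are also in the list of proximal genes given below. The part of position in these ratios was not tested.

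Clca4b was then set against Anpep, the aminopeptidase N gene of the brush border. Anpep had 2609, 3752 and 3736 CPM and 3860.0 and 4353 CPM, and counts of Clca4b per count of Anpep were 0.768, 0.699 and 0.682 across Cre-negative mice against 0.790 and 0.772 across Cre-positive mice. Those of Clca4a were 0.171, 0.114 and 0.186 and 0.355 and 0.268. In likeness to Clca4b, Anpep took place 17, and the nearest genes were Cdc42se2, Tmem41b, Tapbpl, Ap4b1 and Zfp282, at 0.03 to 0.06. Clca4b spanned only 1.68-fold, so by this measure any steady gene lies near it, and these places show no pattern particular to enterocytes. Anpep was the only villus enterocyte gene set against it singly, and 15 of the 24 had negative log2 fold changes. Nearest to Clca4a were Nts, the neurotensin gene, at 0.15, Cpm, a carboxypeptidase gene, at 0.16, Rps20 at 0.21, Ly6m at 0.21 and Lgr5, the stem cell receptor gene, at 0.22. Nts had 8.33, 6.78 and 9.64 CPM for Cre-negative mice against 26.0 and 20.2 CPM for Cre-positive mice. Lgr5 had 2.99, 3.01 and 5.78 CPM and 13.8 and 6.95 CPM, and reached the mean of 5 CPM only with the Cre-positive libraries.

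Values relative to epithelium as a whole were as follows. The 10 pan-epithelial genes, led by Vil1, Cdh1, Epcam and Krt8, summed to 2320, 2780 and 3079 CPM in the Cre-negative libraries against 2773 and 3333 CPM in the Cre-positive ones. Counts of Clca1 per 100 of their counts were 1.59, 1.29 and 3.94 and 36.3 and 8.42, a log2 difference of 3.12. For Clca4a the values were 19.2, 15.4 and 22.6 and 49.4 and 35.1, a log2 difference of 1.14. For Clca4b they were 86.4, 94.3 and 82.8 and 109.9 and 101, a log2 difference of 0.26.

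Position markers varied widely within both groups. Of 9 proximal genes tested 1 was positive, and of 8 distal genes tested 7 were positive, with medians of -0.59 and 0.32. Of each, 0 were called by edgeR or DESeq2 and 0 had an unadjusted p under 0.05. The proximal sum was 759, 264 and 2647 CPM in the Cre-negative libraries and 317 and 1598 CPM in the Cre-positive ones, and Fabp1 was at 0 in Cre-positive 1. The distal sum was 2722, 2031 and 1597 CPM and 3204 and 2711 CPM. It came largely from Cubn and Mep1b, the latter at 398, 615 and 660 CPM and 836 and 770 CPM. Its order over the libraries was not that of Slc10a2. Apoa4 and Slc2a2 of the proximal list followed the order of Lct over the libraries, and Slc51a of the distal list that of Slc10a2. Slc40a1 of the proximal list did not follow Lct, at 17.3, 98.3 and 9.29 CPM and 241 and 24.5 CPM. Cubn and Mep1b of the distal list did not follow Slc10a2, and Cubn had 1801, 563 and 709 CPM and 912 and 1545 CPM. Cre-negative 2 and Cre-positive 1 were both low in Lct and high in Slc10a2, and had 36.0 and 1006 CPM of Clca1, 427 and 1369 CPM of Clca4a and 2621 and 3048 CPM of Clca4b. Cre-negative 3 and Cre-positive 2 were both high in Lct and low in Slc10a2, and had 121 and 281, 695 and 1169, and 2549 and 3361 CPM. The pairs were set side by side by Lct and Slc10a2 alone, after the values had been seen. Each pair holds 1 library per group, so there is no replicate check.

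The remaining lists bear on partners and inducers of the family. Of 14 chloride and anion transport genes 13 passed the filter, 5 were positive and 8 negative, the median was -0.23, 0 were called by edgeR or DESeq2, and 0 had an unadjusted p under 0.05. Ano1, the calcium-activated chloride channel that CLCA1 is known to modulate, had 38.5, 17.7 and 10.2 CPM across Cre-negative mice against 13.6 and 15.6 CPM across Cre-positive mice, with a log2 fold change of -0.66 ± 0.60. Ano6, a lipid scramblase gene, had 664, 311 and 795 CPM and 58.2 and 778 CPM. Slc12a2, the basolateral chloride uptake transporter, had 89.3, 91.7 and 188 CPM and 277 and 113 CPM. Slc4a4, a bicarbonate cotransporter, had 417, 559 and 384 CPM and 430.1 and 499 CPM, and Slc9a3, the sodium-proton exchanger of the brush border, had 162, 482 and 455 CPM and 84.99 and 405 CPM.

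Interleukin 4 and 13 are known inducers of Clca1 in mucous epithelia. Of 17 fixed genes of that program 9 were in the table and 5 passed the filter, 2 of them positive, with a median of -0.02, 0 called by edgeR or DESeq2 and 0 at an unadjusted p under 0.05. Il13ra1, a receptor chain, had 238, 289 and 361 CPM for Cre-negative mice against 391 and 407 CPM for Cre-positive mice (log2 fold change 0.43 ± 0.22). Stat6, the factor these cytokines activate, had 54.7, 65.1 and 69.1 CPM and 50.8 and 73.6 CPM, and Il4ra had 62.0, 82.4 and 50.8 CPM and 54.8 and 61.3 CPM. Il33, an alarmin gene, had 14.7, 13.9 and 19.8 CPM and 9.80 and 16.2 CPM.

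Among genes that process mucus, 7 of 8 passed the filter and 5 were positive, with a median of 0.34, 0 called by edgeR or DESeq2 and 1 (Fcgbp) at an unadjusted p under 0.05. Mep1b, the meprin beta subunit that trims Muc2, had 398, 615 and 660 CPM in the Cre-negative libraries against 836 and 770 CPM in the Cre-positive ones, with groups that did not overlap and a log2 fold change of 0.53 ± 0.25. Mep1a, its partner subunit, had 442, 477 and 115 CPM and 542 and 464 CPM, and Tgm2, a crosslinking enzyme gene, had 60.2, 85.9 and 58.9 CPM and 118 and 59.5 CPM.

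Other cell type markers were summed in the same way. Of 7 lymphatic endothelium genes 6 were in the table, and they summed to 39.5, 28.6 and 18.4 CPM across Cre-negative mice against 35.6 and 18.4 CPM across Cre-positive mice, an order unlike that of Clca3a1. Of 7 mast cell markers only Kit, which other cells of the gut wall also express, was in the table, at 9.37 to 21.1 CPM. Of 6 keratinocyte markers only Krt14 and Krt10 were, at sums of 4.00 to 16.9 CPM. Tuft cell markers summed to 44.0 to 71.0 CPM, with 2 of 6 tested positive. Enteroendocrine markers summed to 17.1, 25.2 and 34.0 CPM and 71.2 and 25.2 CPM. Of these, 5 of 6 tested were positive, with a median of 0.64. By edgeR or DESeq2 0 were called, and 1 had an unadjusted p under 0.05, beside 485 of 14352 genes in all. The 9 Paneth cell genes had 0 positive log2 fold changes and a median of -0.41, and 0 were called by edgeR or DESeq2 or had an unadjusted p under 0.05. Smooth muscle genes had 0 of 10 positive, a median of -0.88 and 2 at an unadjusted p under 0.05. Their groups did not overlap for 4 of 10, beside 16.3% of all genes tested in either direction. All 5 lymphocyte genes tested were positive with an unadjusted p under 0.05, and Cre-positive 1 was their highest library. Of 10 pan-epithelial genes 9 were positive and 1 had such a p. In each of these lists 0 were called by edgeR or DESeq2.

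Genes beside the cluster were measured in the same way. Sh3glb1, next to Clca3a1, had 210, 208 and 295 CPM for Cre-negative mice against 226 and 259 CPM for Cre-positive mice, with a log2 fold change of 0.03 ± 0.23. Selenof, beyond it, had 0.30 ± 0.25. Odf2l, next to Clca2, had 15.8, 20.3 and 21.7 CPM and 29.4 and 18.1 CPM, with 0.28 ± 0.27. Col24a1, beyond it, did not pass the filter.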

How the data were processed

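Total RNA of small intestine was depleted of ribosomal RNA and sequenced, per the labels' protocols. The authors deposited estimated counts per gene symbol, and the submitters' processing notes name Partek and mm10. The aligner, the annotation and the division of shared reads are not given in these sources. All 5 columns were used and 0 rows named no gene. CPM were computed from the counts as deposited and the column totals. Rounded counts were fitted with edgeR 4.0.16 (R 4.3.3): TMM, filterByExpr with a minimum count of 10 (14352 genes), robust quasi-likelihood fitting on genotype, Benjamini-Hochberg adjustment, threshold 0.05. The filter can be met by the Cre-positive libraries alone, but all 6 members had at least 12.9 counts in every library. Each standard error was obtained as the log2 value over the root of its F statistic. On simulated counts the fit called 48 of 100 genes changed 4-fold and 1 of 100 changed 2-fold, and it also called 12 unchanged genes, of 13853 genes in all. The changed genes were drawn only from those above a minimum mean count. Genes varied independently there, without the position and lymphocyte differences of the real libraries, so these shares do not give the power of the real contrast. DESeq2 1.42.0, limma-voom (limma 3.58.1), RLE, upper-quartile and total-count scaling, other filters and each mouse left out were alternatives. Exon lengths came from GENCODE M21 (18923 symbols matched), and coding sequences were aligned with Biopython 1.88. Replicate numbers follow record order and pair no mice; p-values measure the spread between these mice. Members and lists were chosen with earlier results of these data known. Named genes were the members, the 4 genes of each list with the highest mean CPM, the 5 nearest by likeness and genes beside the cluster. Agr2, Ang4, Ano1, Cd79a, Fabp1, Tff3 and Zg16 are not among the 4 highest of their lists and were named after their values were seen. Not every gene the rule takes is described.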

Additional observations from a re-analysis of the deposited data

How the results depend on the processing

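Directions of Clca1, Clca4a, Clca4b and Clca3a2 held under every alternative that was run, while Clca3b ranged from 0.0034 (without Cre-positive 1) to 1.82 (without Cre-negative 3). The count of genes called was 0 with edgeR on all mice under every scaling and filter and with limma-voom, 19 with DESeq2, and 0 to 58 with each mouse left out, the 58 without Cre-positive 2. With DESeq2, Clca1 had a log2 fold change of 3.35 (adjusted p = 0.00144) and Clca4a 1.30 (adjusted p = 0.0145), both past the threshold that edgeR did not reach; adjusted p over the other scalings, filters and limma-voom lay between 0.963 and 0.996 for both. With each mouse left out, Clca1 ranged from 2.22 to 4.09, Clca4a from 1.14 to 1.499 and Clca4b from 0.34 to 0.56. The log2 difference in the ratio of Clca1 to Clca4a plus Clca4b ranged from 1.72 to 3.60. With a Cre-negative mouse left out, no edgeR adjusted p of these genes was under 0.635. Clca3a1 (-0.08) changed sign to 0.0618 with limma-voom and ranged from -0.44 to 0.27 with each mouse left out: 0.10 without Cre-negative 2, 0.27 without Cre-negative 3 and 0.22 without Cre-positive 1; the cause was not tested. No paired analysis was possible because the replicate numbers come from record order. With 3 and 2 mice, and 12.9 counts behind the lowest value of Clca3a1, differences of the size of its error were not detectable.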
